A study of Mus musculus with 20 samples.

Results

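The Bcl2 family of apoptosis regulators was read in the blood RNA of irradiated and unirradiated mice, with the pro-survival genes Bcl2, Bcl2l1 and Mcl1 set against the pro-death genes Bax, Bak1, Bbc3, Pmaip1, Bid, Bcl2l11 and Bik. These 10 genes were picked by name, from the gene name column of the array files, and are represented by 13 of the 39429 non-control probes and by 10 of the 31093 gene names on the array. Of the 13 probes, 11 passed the filters on dim and invariant probes and were tested, so that 9 of the 10 genes have a test and Bik has values only. The mice were male littermates on a C57BL/6 background, labelled WT or Il10-/-, where the second label stands for a germ-line knockout of the gene of the anti-inflammatory cytokine interleukin 10. Mice of each genotype had received whole-body X rays at 7 Gy or a sham exposure of 0 Gy, and blood was drawn 24 h later. This gave 4 groups of 5 arrays, listed as 1 array per mouse, of RNA purified from whole blood and depleted of globin transcripts. No source used here ties an array to a named animal, so p-values measure the spread between these 5 samples per group. The design sets 7 Gy against 0 Gy within each genotype, mice labelled Il10-/- against mice labelled WT at each dose, and the radiation responses of the genotypes against each other.

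Apoptosis through the mitochondria is decided by proteins of the Bcl2 family. The effectors Bax and Bak1 open pores in the outer mitochondrial membrane, which releases cytochrome c and starts the caspases. The pro-survival proteins Bcl2, Bcl-xL (made from Bcl2l1) and Mcl1 hold the effectors and their activators in check. The BH3-only proteins Puma (Bbc3), Noxa (Pmaip1), Bim (Bcl2l11), Bid and Bik bind the pro-survival proteins or the effectors and tip the balance towards death. Bax, Bbc3 and Pmaip1 are textbook targets of p53, which responds to DNA damage. Among blood cells, B and T lymphocytes depend on Bcl2 and die readily by apoptosis after irradiation, neutrophils depend on Mcl1, and maturing red cells and platelets carry much Bcl-xL.

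The probes are 60 bases long and each reads a short stretch of its gene's transcripts, so splice forms without that stretch are not seen. The Bcl2 and dimmer Bcl2l1 probes are shown because both genes have splice forms, and the Bcl2l11 probe because its stretch holds the codons of glycine and aspartate of the BH3 motif, given in capitals. The probes read 5′ to 3′ as follows.
Bcl2 probe: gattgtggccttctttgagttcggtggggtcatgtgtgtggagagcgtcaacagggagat
Bcl2l1 dimmer probe: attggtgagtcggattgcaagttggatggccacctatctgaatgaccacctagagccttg
Bcl2l11 probe: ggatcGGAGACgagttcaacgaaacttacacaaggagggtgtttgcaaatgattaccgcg

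The promoter of Bax is shown because Bax was the member with the largest rise in mice labelled WT and because its window held a match to the half-site consensus of p53, a motif that reads the same on both strands. The window is the 250 bases before the start of Bax on the minus strand of chromosome 7, at chr7:45466899-45467148 of GRCm38.p6, from RefSeq. The match, in capitals, begins 201 bases before the start.
Bax promoter: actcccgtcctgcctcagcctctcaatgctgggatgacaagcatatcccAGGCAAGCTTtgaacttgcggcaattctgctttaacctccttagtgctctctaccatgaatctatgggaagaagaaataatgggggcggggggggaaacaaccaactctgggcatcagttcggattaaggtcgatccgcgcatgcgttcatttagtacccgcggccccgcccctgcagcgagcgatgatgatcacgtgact
The windows searched were 300 bases long, and 8 of the 10 genes had at least 1. Of 13 windows of these genes the Bax window was the 1 with a match. Over all RefSeq windows of that length 8.36% held such a half-site, and 9.55% of genes had it in at least 1 window. A match of letters is a description and is not evidence of binding.

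The targeted gene was read first, and it ran against its label. The Il10 probe had a log2 signal over the array median of 2.75 ± 0.31 (SD, n = 5) at 0 Gy and 2.71 ± 0.62 (SD, n = 5) at 7 Gy with the Il10-/- label. The values with the WT label were −1.54 ± 0.45 (SD, n = 5) and −1.85 ± 0.61 (SD, n = 5), with 1 of these 10 arrays well above background. The probe's position relative to the deleted segment is not given in the sources used here, so every direction between genotypes below is between the labels. Without irradiation 6 of 9 neutrophil markers were higher with the Il10-/- label. Between 29.9% and 57.8% of the spots of an array were well above background. The lowest share was that of replicate 5 of the unirradiated mice labelled WT, whose repeated spots differed by a SD of 0.56 on the log2 scale against 0.078 to 0.28 on the other arrays. Replicates 1 and 2 of each group were the closest pair, with a robust SD between their log2 signals of 0.23 to 0.336 against 0.408 to 1.4 for the other 36 pairs of arrays within a group. The sources used here do not settle whether these 2 arrays are independent, so a group may hold fewer than 5 independent samples. Genes of liver and heart muscle, tissues that should be absent from blood, were high on some arrays of 3 groups. Their values and the results without the doubtful arrays are given beside the members.

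The values of the members are log2 signals minus the median log2 signal of the array, and a difference of 1 on that scale is a doubling. Levels can be compared between groups for 1 probe, but not between probes. A gene was called changed where limma's moderated test gave p below 0.001 with a false discovery rate under 10%, over 18655 tested probes of 15808 genes. Where a gene has several probes, the brighter stands for it in the counts.

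Bcl2l1 fell after irradiation in both genotypes, the 1 pro-survival member that was called. It encodes Bcl-xL, and its brighter probe lies on the minus strand of chromosome 2 at chr2:152606404-152606463 of mm9. In unirradiated mice labelled WT its log2 signal over replicates 1 to 5 was 11.55, 11.47, 11.66, 13.11 and 11.82. In the irradiated ones it was 9.18, 9.21, 9.90, 10.25 and 10.10. Every irradiated array lay below every unirradiated one, and replicate 4 without irradiation stood above the rest. The difference was −2.19 with a standard error of 0.42 (limma, adjusted p = 0.00336), or 4.58-fold lower. Since the groups did not overlap, the irradiated array was necessarily the lower on 5 of 5 slides. In bulk blood such a difference cannot be assigned: fewer cells of a type and less RNA per cell cannot be told apart.

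The same probe in mice labelled Il10-/- read 12.63, 12.55, 11.38, 11.33 and 13.18 without irradiation. After 7 Gy it read 9.85, 9.91, 9.79, 10.66 and 10.99. The groups again did not overlap, with the nearest arrays 10.99 and 11.33. The difference was −1.97 with a standard error of 0.40 (limma, adjusted p = 0.00538), or 3.92-fold lower. With replicates 1 and 2 averaged into 1, this call was lost (difference −1.79, limma, adjusted p = 0.0405, but p above 0.001), while that in mice labelled WT held (difference −2.16).

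The dimmer Bcl2l1 probe lies 48.7 kb away, at chr2:152655185-152655244 of mm9. Among mice labelled WT its log2 signal spanned 4.68 to 6.18 (median 5.60) without irradiation and 2.57 to 4.38 (median 3.51) with it. The difference was −2.08 (standard error 0.43, limma, adjusted p = 0.00531), so both probes gave the call. With the Il10-/- label it spanned 4.54 to 7.30 (median 6.55) and 3.40 to 4.88 (median 4.06). These groups overlapped, and the difference of −2.04 was not called, since its p was above 0.001 (limma, adjusted p = 0.0165).

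Erythroid genes moved with Bcl2l1. The mean log2 signal of 10 erythroid markers, of 11 on the list, spanned 5.94 to 7.74 without and 4.18 to 5.61 with irradiation in mice labelled WT. For the Il10-/- label the ranges were 5.78 to 7.38 and 4.27 to 5.54. Of the 10 markers tested, 6 fell and 1, the erythropoietin receptor gene Epor, rose in mice labelled WT, and 7 fell in mice labelled Il10-/-. Replicate 4 of the unirradiated mice labelled WT had the highest mean of these markers, 7.74, and also the highest Bcl2l1 signal of its group. Of 8 platelet markers none was called. Their median differences were 1.26 with the WT and 1.20 with the Il10-/- label. Their means with the WT label were 6.98 to 8.60 without and 8.77 to 9.83 with irradiation. The unirradiated replicate 4 again held the highest of its group, 8.60. With the Il10-/- label they were 7.40 to 10.08 and 9.87 to 10.76. Unirradiated replicates 3 and 4 of that label had the group's lowest platelet means (7.82 and 7.40), erythroid means (5.88 and 5.78) and Bcl2l1 signals. These 2 arrays also had the group's highest means of liver markers (8.10 and 9.38). The part of red cell precursors and platelets in the Bcl2l1 result was not tested.

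Bcl2, the founding member and a survival factor of lymphocytes, gave no call, and its largest difference was between irradiated groups. Its probe lies on the minus strand at chr1:108608970-108609029 of mm9. Unirradiated mice labelled WT had log2 signals of 4.89, 4.78, 4.83, 4.00 and 1.86, where the last array was not well above background. Irradiated ones had 3.58, 3.83, 4.76, 5.04 and 4.57. The groups overlapped, and the difference of 0.29 (95% interval −0.89 to 1.47, limma, adjusted p = 0.781) became −0.27 without replicate 5 of the unirradiated group. Its sign was therefore set by that weak array.

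Mice labelled Il10-/- had Bcl2 signals of 4.85, 5.09, 4.55, 4.86 and 4.03 without irradiation. Irradiated ones had 5.19, 5.44, 5.69 and 5.63, since the spot of replicate 3 was marked as uneven and left out of the fit. All 4 irradiated arrays lay above all 5 unirradiated arrays. The difference was 0.82 (standard error 0.27, n = 4 and 5, limma, adjusted p = 0.0499), or 1.76-fold, which is past a false discovery rate of 5% but not past the threshold on p. Lymphocyte markers went the other way: the mean of 9 B cell markers was 4.55 to 5.66 without irradiation and 2.17 to 2.71 with it, and that of 10 T cell markers 5.61 to 5.89 and 4.45 to 5.35. The part of cell numbers in the Bcl2 signal was not tested.

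Mcl1, which neutrophils and other short-lived blood cells need, was not called in either genotype by either of its probes. The brighter probe, at chr3:95466855-95466914 of mm9 on the plus strand, spanned 6.07 to 8.63 (median 8.28) at 0 Gy and 7.40 to 8.16 (median 7.73) at 7 Gy in mice labelled WT. The difference was 0.035, with a 95% interval from −0.98 to 1.05. With the Il10-/- label the ranges were 8.31 to 8.78 (median 8.66) and 7.91 to 9.05 (median 8.05), and the difference was −0.34, with an interval from −0.90 to 0.22. The dimmer probe, at chr3:95465543-95465602, gave −0.15 and −0.57. The intervals still admit changes of up to about 1 on the log2 scale in mice labelled WT, where Mcl1 changed sign without replicate 5 of the unirradiated group (−0.38).

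**Figure D1:**
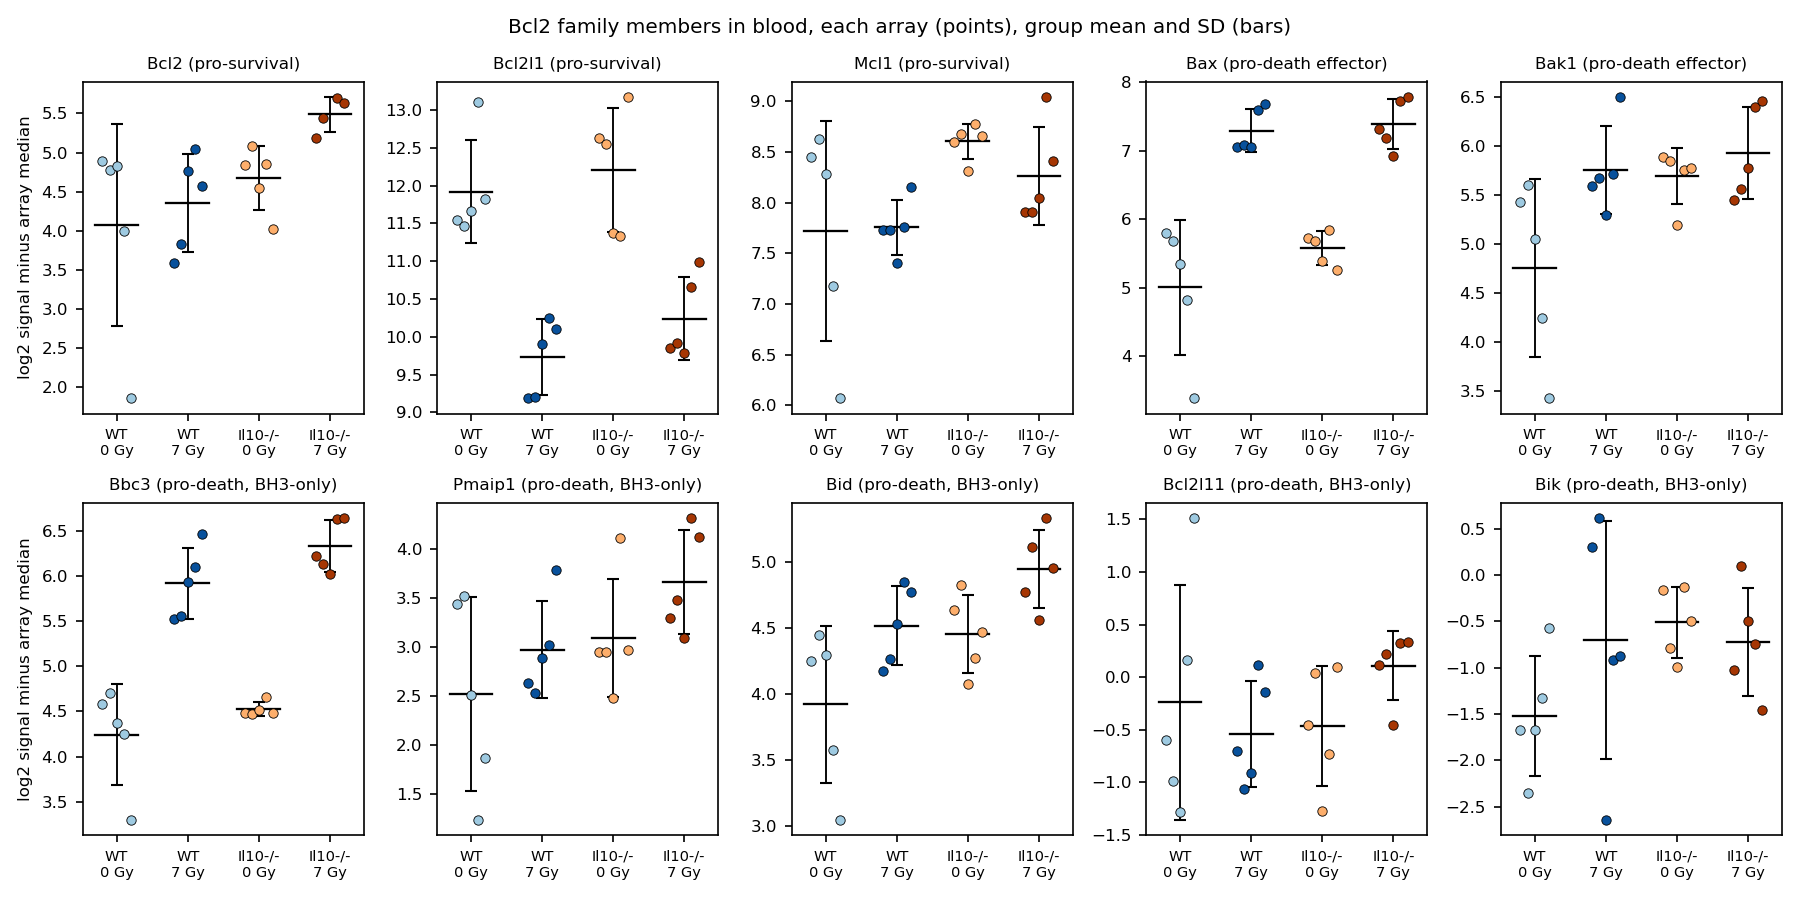
Log2 signal minus the array median (vertical axis) of the probe that stands for each of the 10 genes, by group, with 1 point per array and bars for the mean and SD. Bax and Bbc3 of the irradiated arrays lie above, and Bcl2l1 below, all unirradiated arrays of the same genotype.

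Bax, the pore-forming effector, rose in both genotypes. Its probe lies on the minus strand of chromosome 7 at chr7:52717122-52717181 of mm9. Its log2 signal in unirradiated mice labelled WT was 5.80, 5.69, 5.35, 4.81 and 3.38, and 7.06, 7.08, 7.05, 7.59 and 7.69 in irradiated ones. The lowest irradiated array was 7.05 and the highest unirradiated array 5.80. The difference was 2.29 with a standard error of 0.46 (limma, adjusted p = 0.00441), or 4.89-fold. On single slides it ranged from 1.26 to 4.31, the largest value being that of the slide with the weak replicate 5, and without that array the difference was 1.88 (limma, adjusted p = 0.00221).

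Among mice labelled Il10-/- the Bax signals were 5.73, 5.68, 5.39, 5.85 and 5.26 without irradiation and 7.33, 7.19, 6.93, 7.73 and 7.79 with it. Again no arrays overlapped. The difference was 1.81 with a standard error of 0.24 (limma, adjusted p = 0.000426), or 3.51-fold, and it ranged from 1.51 to 2.53 over the 5 slides. With replicates 1 and 2 averaged, Bax stayed called in mice labelled WT (2.53) and in mice labelled Il10-/- (1.88).

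Bak1, the other effector, was not called. Its probe, at chr17:27156807-27156866 of mm9 on the minus strand, spanned 3.42 to 5.60 (median 5.05) at 0 Gy and 5.29 to 6.50 (median 5.67) at 7 Gy in mice labelled WT. The difference of 1.00 was positive on 5 of 5 slides (limma, adjusted p = 0.157), and was 0.67 without replicate 5 of the unirradiated group. In the other genotype the ranges were 5.19 to 5.89 (median 5.77) and 5.45 to 6.46 (median 5.77). The difference there was 0.24, with a 95% interval from −0.34 to 0.82.

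Bbc3, which encodes the BH3-only protein Puma, rose in both genotypes. Its probe lies on the plus strand at chr7:16903403-16903462 of mm9. Unirradiated mice labelled WT gave 4.58, 4.70, 4.38, 4.25 and 3.30, and irradiated ones 5.52, 5.56, 5.94, 6.10 and 6.47. Every irradiated array was above every unirradiated one. The difference was 1.68 with a standard error of 0.39 (limma, adjusted p = 0.0106), or 3.19-fold. This call sat close to the threshold: with the slide as a block the difference was the same but p was above 0.001 (limma, adjusted p = 0.0141), and the call was also lost with replicates 1 and 2 averaged (1.87, adjusted p = 0.0308), with quantile normalization (1.31) and without any 1 of 6 arrays. Those arrays were replicates 1, 3 and 4 of the unirradiated and 3, 4 and 5 of the irradiated mice labelled WT, and the difference without a single array ranged from 1.44 to 1.79.

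Bbc3 in mice labelled Il10-/- read 4.49, 4.48, 4.52, 4.67 and 4.48 without irradiation, the tightest group of any member, and 6.22, 6.14, 6.02, 6.63 and 6.64 with it. The difference was 1.81 with a standard error of 0.21 (limma, adjusted p = 0.000172), or 3.50-fold, and ranged from 1.51 to 2.16 over the slides. It stayed called with replicates 1 and 2 averaged (1.83).

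Pmaip1, Bid and Bcl2l11 did not pass the test in either genotype. Pmaip1 encodes Noxa, an inhibitor of Mcl1. Its log2 signal spanned 1.24 to 3.52 (median 2.51) at 0 Gy and 2.54 to 3.79 (median 2.89) at 7 Gy in mice labelled WT, a difference of 0.46 (95% interval −0.55 to 1.47). Among mice labelled Il10-/- it spanned 2.48 to 4.11 (median 2.96) and 3.10 to 4.32 (median 3.49), a difference of 0.57 (−0.17 to 1.31) that was positive on 5 of 5 slides. Although Pmaip1 is a p53 target like Bax and Bbc3, its groups overlapped in both genotypes.

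Bid links death receptors to the mitochondria once it is cleaved, and its probe lies at chr6:120843464-120843523 of mm9 on the minus strand. With the WT label it spanned 3.04 to 4.45 (median 4.25) at 0 Gy and 4.17 to 4.85 (median 4.54) at 7 Gy, a difference of 0.60 (95% interval −0.22 to 1.42). The ranges with the Il10-/- label were 4.08 to 4.83 (median 4.47) and 4.56 to 5.34 (median 4.96), a difference of 0.49 (−0.016 to 1.00). All of these groups overlapped.

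Bcl2l11, which encodes Bim, a main killer of lymphocytes, was near background. The probe that was tested has no mm9 position in the files and was well above background on 1 of 5 arrays of unirradiated and 0 of 5 of irradiated mice labelled WT, and on 4 of 5 and 2 of 5 with the Il10-/- label. The mean log2 signals were −0.24 without and −0.54 with irradiation in mice labelled WT, a difference of −0.30 (limma, adjusted p = 0.741) that became 0.14 without replicate 5 of the unirradiated group. No fold or direction can be read from such signals. With the Il10-/- label the difference was 0.57 (95% interval −0.072 to 1.22). On none of the 20 arrays was the other Bcl2l11 probe well above background, and it was not tested.

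Bik, which acts at the endoplasmic reticulum, failed the background filter and was not tested. Its probe, at chr15:83374048-83374107 of mm9 on the plus strand, was well above background on 0 and 2 of 5 arrays of unirradiated and irradiated mice labelled WT, and on 2 and 1 of 5 with the Il10-/- label. The means were −1.52 and −0.70 in mice labelled WT. They were −0.51 and −0.72 in mice labelled Il10-/-. The arrays of every pair of these groups overlapped, so no order of the groups can be read.

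Counted over the family, 2 genes rose (Bax and Bbc3), 1 fell (Bcl2l1), 6 did not pass the test and 1 was not tested, with the same split in each genotype. In mice labelled WT these 3 were 33.3% of the 9 tested genes, against 6.78% of all tested probes called, of which 4.47% were higher and 2.31% lower. The same 3 genes had groups that did not overlap, as did 16.1% of all tested probes, 11.8% higher and 4.27% lower. The called share in mice labelled Il10-/- was again 33.3%, against 9.13% of all probes, 3.29% higher and 5.84% lower. There 4 genes did not overlap, Bcl2 being the fourth, against 17% of all probes, 6.12% higher and 10.9% lower. With 9 genes these shares are a description.

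By role, 1 of 3 pro-survival genes was called lower and none higher in each genotype. Called higher were 1 of 2 effectors and 1 of 4 tested BH3-only genes. The median difference was 0.035 for the pro-survival genes, 1.65 for the effectors and 0.53 for the BH3-only genes in mice labelled WT. It was −0.34, 1.02 and 0.57 in mice labelled Il10-/-. Over all 9 genes the median was 0.46 and 0.57, beside −0.022 and −0.096 over all tested probes. Other scalings and background corrections moved the median of all probes in mice labelled WT to between −0.29 (75th percentile) and 0.65 (normexp). Bax, Bbc3 and Bcl2l1 kept their signs under each of these.

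**Figure D2:**
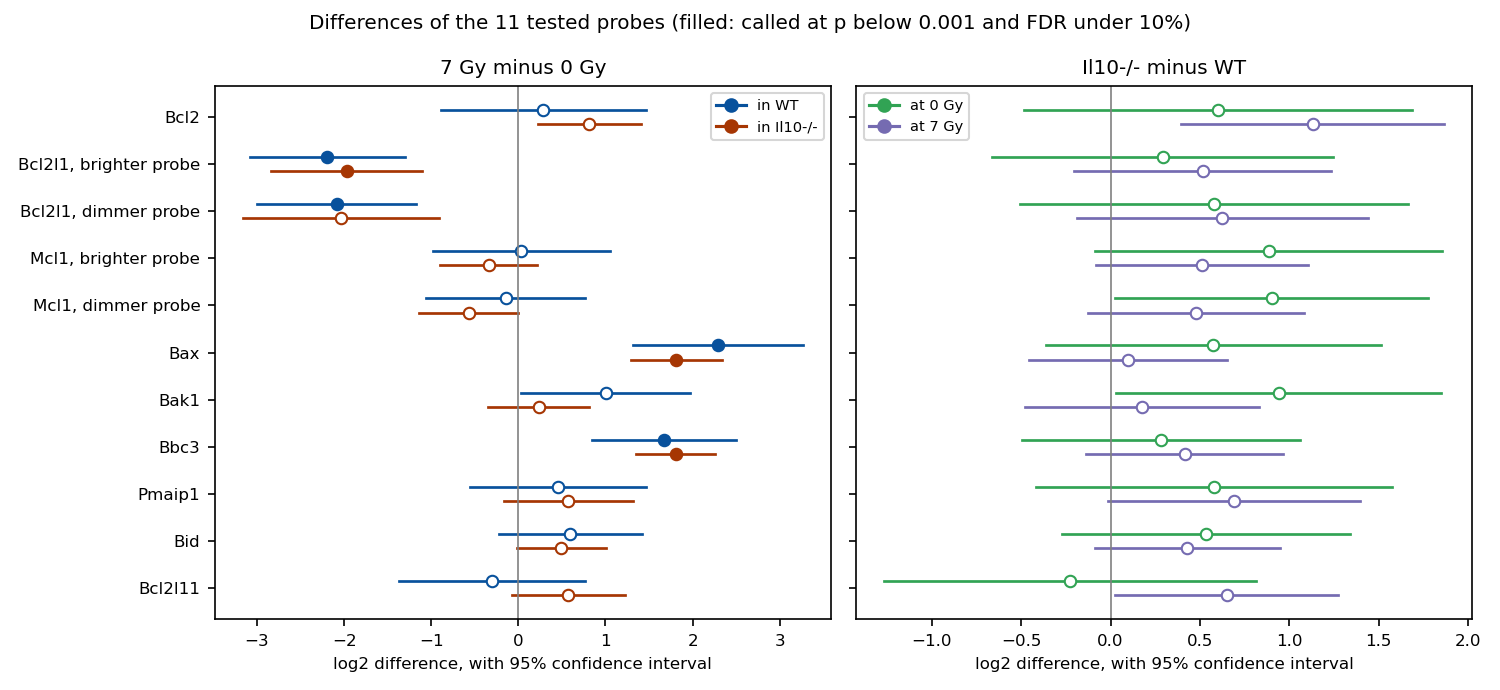
Log2 differences with 95% confidence intervals (horizontal axis) of the 11 tested probes, for 7 Gy minus 0 Gy in each genotype (left) and mice labelled Il10-/- minus mice labelled WT at each dose (right), with called probes filled. Bax and Bbc3 lie to the right and both Bcl2l1 probes to the left on the left side, and no probe is filled on the right.

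Bax and Bbc3 were also set against the pro-survival genes within each array, as the log2 signal of 1 probe minus that of another, which does not depend on how arrays are scaled. These numerators, chosen with earlier results known, are the 2 pro-death genes called higher, and no ratio was formed for the 5 others. Because probes differ in brightness, only its change between groups can be read. Bax over Bcl2 was 0.52 to 1.53 in unirradiated and 2.30 to 3.48 in irradiated mice labelled WT, a change of 2.00 (SD 0.37 and 0.50, n = 5 and 5). In mice labelled Il10-/- it was 0.59 to 1.23 and 1.75 to 2.16, a change of 1.11 (SD 0.23 and 0.19, n = 5 and 4). Each irradiated array with both values thus had more Bax relative to Bcl2 than any unirradiated array of its genotype.

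Ratios over Bcl2l1 changed most. Bax over Bcl2l1 changed by 4.48 in mice labelled WT (SD 1.35 and 0.32) and by 3.78 in mice labelled Il10-/- (SD 0.94 and 0.25), and Bbc3 over Bcl2l1 by 3.87 and 3.78, with no overlap in any of these. Relative to Mcl1, Bax changed by 2.26 and 2.15 and Bbc3 by 1.64 and 2.15, also without overlap. Bbc3 over Bcl2 changed by 1.39 and 1.07 and overlapped in mice labelled WT, where the unirradiated replicate 5 had the largest unirradiated value, 1.44. Since the ratios combine probes already shown, and their numerators were called higher, they add no separate evidence on Bax, Bbc3 or Bcl2l1.

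**Figure D3:**
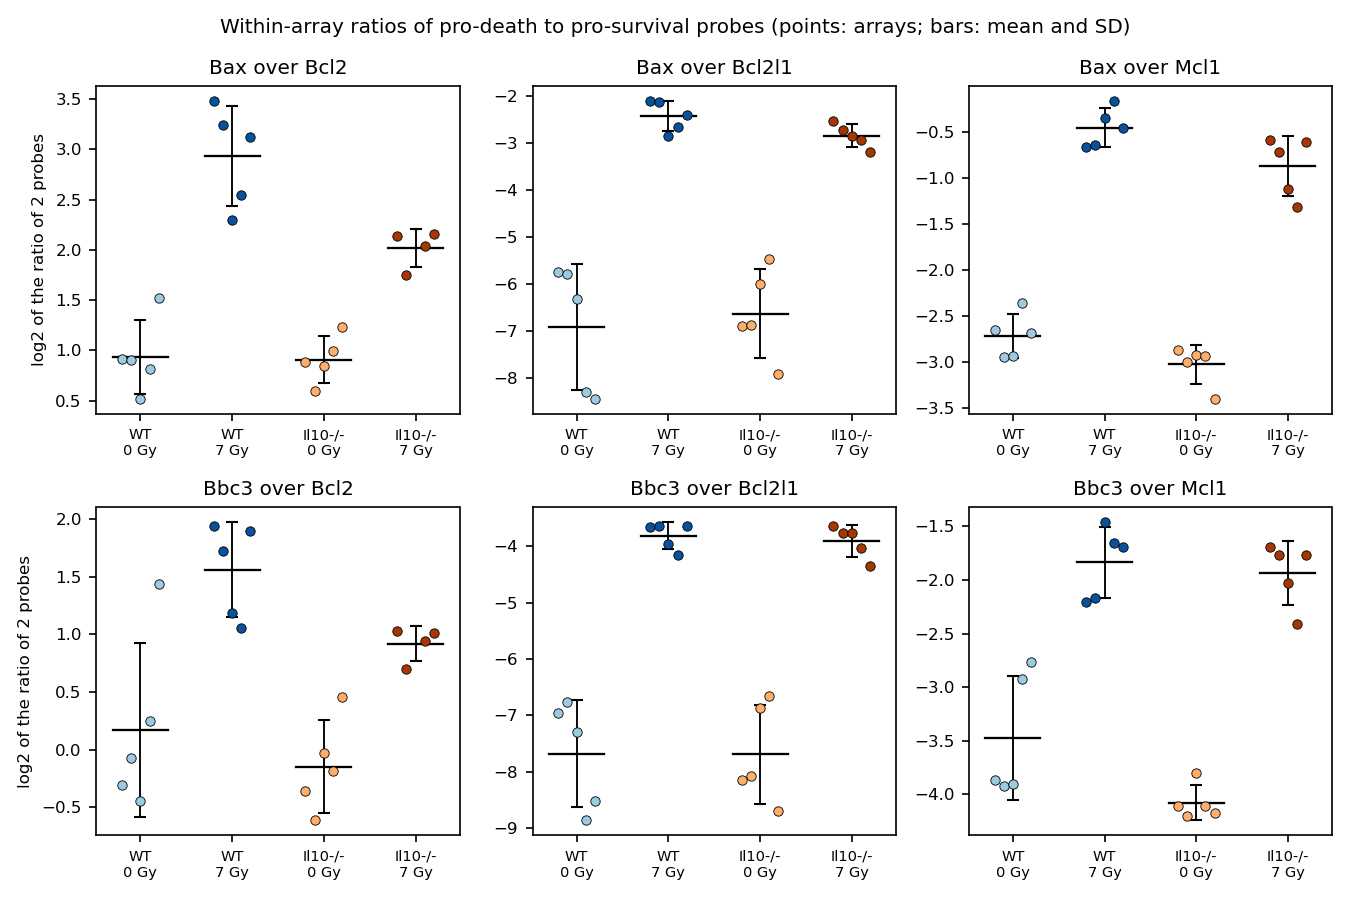
Log2 ratio of a pro-death to a pro-survival probe within each array (vertical axis), by group, with 1 point per array and bars for the mean and SD. The irradiated groups lie above the unirradiated groups of their genotype in each panel, except for the overlap of Bbc3 over Bcl2 in mice labelled WT.

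Between genotypes no member was called at either dose. Without irradiation the differences, mice labelled Il10-/- minus mice labelled WT, ranged from −0.23 for Bcl2l11 to 0.94 for Bak1 over the 9 genes, with a median of 0.58. The median over all tested probes was itself 0.36, and 0.852% of probes were called, all of them higher (0% lower), while 4.55% did not overlap (3.98% higher, 0.568% lower). Bak1 (0.94, limma, adjusted p = 0.303) and Mcl1 (0.88, adjusted p = 0.332) were higher on 5 of 5 slides. Without replicate 5 of the unirradiated mice labelled WT these became 0.61 and 0.47, so part of their size came from 1 array. Under other scalings and with normexp the median over all probes moved to between −0.074 and 0.53, and Bbc3 and Bcl2l1 changed sign.

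Neutrophil markers were higher with the Il10-/- label at this dose, with 6 of 9 called and list means of 7.59 to 9.11 against 5.59 to 7.07. Their part in the members' values was not tested.

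After irradiation Bcl2 was the member that differed most between the labels. Its 4 arrays with the Il10-/- label, from 5.19 to 5.69, all lay above the 5 arrays with the WT label, from 3.58 to 5.04. The difference was 1.13 (standard error 0.33, 95% interval 0.39 to 1.87, limma, adjusted p = 0.366), or 2.19-fold, and did not pass the threshold. Since the groups did not overlap, it was necessarily positive on 4 of 4 slides. With replicates 1 and 2 of each group averaged it was 1.03 (limma, adjusted p = 0.658). Over all probes 2.96% did not overlap (2.25% higher, 0.713% lower) and 0.0107% were called, all higher (0% lower). Replicates 1 and 2 of the irradiated mice labelled WT had the lowest Bcl2 signals (3.58 and 3.83). They also had the lowest T cell marker means of that group, which ranged from 3.73 to 5.12. The same held for their B cell, neutrophil, monocyte, NK cell, erythroid and platelet marker means. Their liver means (11.1 and 11.12) and heart muscle means (8.43 and 8.40) were the highest of the group. With the Il10-/- label the T cell means were 4.45 to 5.35. The part of T cells, other cell types or other tissues in this difference was not tested.

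The other members differed by less between the irradiated groups. Pmaip1 differed by 0.69 (95% interval −0.012 to 1.40) and was positive on 5 of 5 slides. Bcl2l11, near background, had means of 0.11 with the Il10-/- and −0.54 with the WT label (limma, adjusted p = 0.436). Bax differed by 0.10 (−0.45 to 0.65), Bbc3 by 0.41 (−0.14 to 0.97) and Bcl2l1 by 0.51 (−0.20 to 1.23). The dimmer Bcl2l1 probe differed by 0.63 (−0.19 to 1.44), and with normexp Bax differed by −0.75. Each interval holds for 1 probe under 1 scaling, and none shows that the levels were equal. The median over the 9 genes was 0.51, beside 0.078 over all probes.

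The radiation responses were then compared with each other, as the interaction of genotype and dose over all 20 arrays. No member and 0% of all probes were called by limma in this test, although 1334 of 18655 probes had an unadjusted p under 0.05. None of those 1334 was a member's probe. The response in mice labelled Il10-/- minus that in mice labelled WT was −0.48 for Bax (95% interval −1.56 to 0.60), 0.13 for Bbc3 (−0.72 to 0.99) and 0.22 for Bcl2l1 (−0.97 to 1.41). It was 0.53 for Bcl2 (−0.87 to 1.93), −0.77 for Bak1 (−1.86 to 0.33) and 0.88 for Bcl2l11 (−0.38 to 2.13). Without the weak replicate 5 of the unirradiated mice labelled WT these values were −0.072 for Bax, 0.37 for Bbc3, 0.25 for Bcl2l1, 1.08 for Bcl2, −0.43 for Bak1 and 0.44 for Bcl2l11, and none was called (adjusted p 0.816 to 0.977). Each of the intervals above includes 0, so the rise of Bax by 2.29 and by 1.81 is not shown to differ between genotypes. The median over the 9 genes was 0.11 and over all probes −0.20.

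The rest of the family followed no common direction. Of 16 other genes, 14 were on the array and 10 were tested. Bok, an effector related to Bax, rose by 2.74 on the log2 scale in mice labelled WT (limma, adjusted p = 0.00257) and by 2.27 with the Il10-/- label (adjusted p = 0.00811). Bnip3l, which removes mitochondria from maturing red cells, fell by 1.81 in mice labelled WT (adjusted p = 0.013). Its difference of −1.46 with the Il10-/- label was not called (adjusted p = 0.0161). The BH3-only gene Bmf fell by 1.89 with the Il10-/- label (adjusted p = 0.00543), while −1.01 with the WT label was not called (adjusted p = 0.163). The median of the 10 was 0.49 with the WT and 0.0046 with the Il10-/- label, and none was called between genotypes or in the interaction.

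Downstream of the family, 15 of 21 genes of the mitochondrial pathway (cytochrome c release, the apoptosome, caspases and their inhibitors) were tested. None was called in mice labelled WT, with a median of 0.90. The median in mice labelled Il10-/- was 0.096. None was called between genotypes or in the interaction.

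Of 16 genes of p53 regulation and p53 targets outside the family, 14 were tested and 8 rose in each genotype, with none falling. Cdkn1a, the cell cycle inhibitor p21, rose by 5.42 in mice labelled WT (limma, adjusted p = 2.298e-05) and by 4.45 with the Il10-/- label (adjusted p = 6.767e-06). Phlda3 rose by 4.06 and 3.68, the cell cycle gene Ccng1 by 2.51 and 2.28, the death receptor gene Tnfrsf10b by 2.29 and 2.26, and the nuclease gene Aen by 2.49 and 1.86. Ei24, Psrc1 and Zmat3 also rose, by 2.92, 2.72 and 1.83 with the WT label and by 1.68, 2.68 and 1.63 with the Il10-/- label. Mdm2, which degrades p53, was at 1.18 and 0.89 and Trp53 itself at −0.70 and −0.91, none of them called. The list medians were 2.39 and 1.65, and no gene of it was called between genotypes or in the interaction. Bax and Bbc3 were called higher too, while Pmaip1 did not pass the test. These 8 genes are those of the list that were called higher, so the shared direction is a description.

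Over the 20 arrays the genes whose signals ran most like that of Bcl2l1, of 18844 genes above background, were Smap1 (Pearson r = 0.981), Add2 (0.979) and Slc48a1 (0.977). Add2 encodes a protein of the red cell skeleton and Slc48a1 a haem transporter. For Bax they were Tmbim1 (0.98), Dhx58 (0.976) and Ifi35 (0.975), and for Bbc3 they were Usp18 (0.979), Xaf1 (0.979) and Bax itself (0.972). Dhx58, Ifi35, Usp18 and Xaf1 are genes induced by interferon. Bcl2 ran most like Ctsw (0.944), Ptger4 (0.939) and Ccnd2 (0.936) over 19 arrays, Ctsw being a protease gene of cytotoxic T and NK cells. Mcl1 had Angel2 (0.974) as its nearest, Bak1 had Fam89b (0.976), Bid had Ric8 (0.977), Pmaip1 had Samsn1 (0.926) and Bcl2l11 had Gm6713 (0.869). These correlations include the differences between groups and the weak array, and are a description of these arrays.

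The shift of cell type markers at 7 Gy differed between lists. Of 9 B cell markers 8 fell in each genotype, and in mice labelled WT the list mean was 4.62 to 6.01 without and 2.30 to 2.99 with irradiation. In the other genotype it was 4.55 to 5.66 and 2.17 to 2.71, and Fcer2a and Blk were not well above background on any irradiated array. Of 8 T cell markers 1, Cd8a, fell in each genotype. Of 9 monocyte markers, Adgre1 rose and Cx3cr1 fell in each genotype, Cd14 rose with the WT label and Ccr2 fell with the Il10-/- label, and the list medians were 1.45 and 0.61. No NK cell marker of 8 and no neutrophil marker of 9 was called. The neutrophil list medians were 0.033 with the WT and −0.76 with the Il10-/- label. The means of the members' signals are thus means over blood of different make-up, and the part of that in the members' results was not tested.

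Liver genes went with irradiation in mice labelled WT. The mean log2 signal of 13 liver markers, of 15 on the list, was −0.16 to 1.52 in unirradiated and 2.42 to 11.12 in irradiated mice labelled WT, and 10 of the 13 rose. The plasma protein genes Fgg, F2 and Apoa1 were among 5 not well above background on any unirradiated array of that label. With the Il10-/- label the means were 1.82 to 9.38 and 1.14 to 9.23, and none was called. Heart muscle markers, 6 of 10 averaged, were at 0.45 to 3.34 and 1.15 to 8.43 with the WT label. With the Il10-/- label they were at 0.43 to 4.10 and 2.50 to 8.20, where 5 of 6 rose.

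Single arrays were read for Bax, Bbc3 and Bcl2l1 beside their liver means. Replicate 4 of the irradiated mice labelled WT, with the lowest liver mean of its group (2.42), had Bax at 7.59 and Bbc3 at 6.10. Replicate 3 of the irradiated mice labelled Il10-/-, with a liver mean of 1.14, had Bax at 6.93 and Bbc3 at 6.02. Both arrays were above all unirradiated arrays of their genotype for Bax and Bbc3. Their Bcl2l1 signals, 10.25 and 9.79, were below all unirradiated arrays of their genotype. Replicates 3 and 4 of the unirradiated mice labelled Il10-/- had liver means of 8.10 and 9.38. Their Bax signals were 5.39, within the range of the other 3 arrays (5.26 to 5.73), and 5.85, above it. Their Bbc3 signals, 4.52 and 4.67, were both above those of the other 3 arrays (4.48 to 4.49). Their Bcl2l1 signals, 11.38 and 11.33, were both below those of the other 3 arrays (12.55 to 13.18). With both marker means as covariates Bax and Bbc3 stayed called in mice labelled Il10-/- (2.25 and 2.06), while Bcl2l1 did not (−1.85). Of all 18655 probes 550 were called there with these covariates, against 1703 without them. In mice labelled WT no member was called with them, Bax being at 2.30, Bbc3 at 1.73 and Bcl2l1 at −0.58. In that comparison 6 of all 18655 probes were called with them, against 1265 without. There the liver mean of every irradiated array was above that of every unirradiated one, so that covariate and dose can hardly be told apart. The part of these tissues in the members' results was not tested otherwise.

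**Figure D4:**
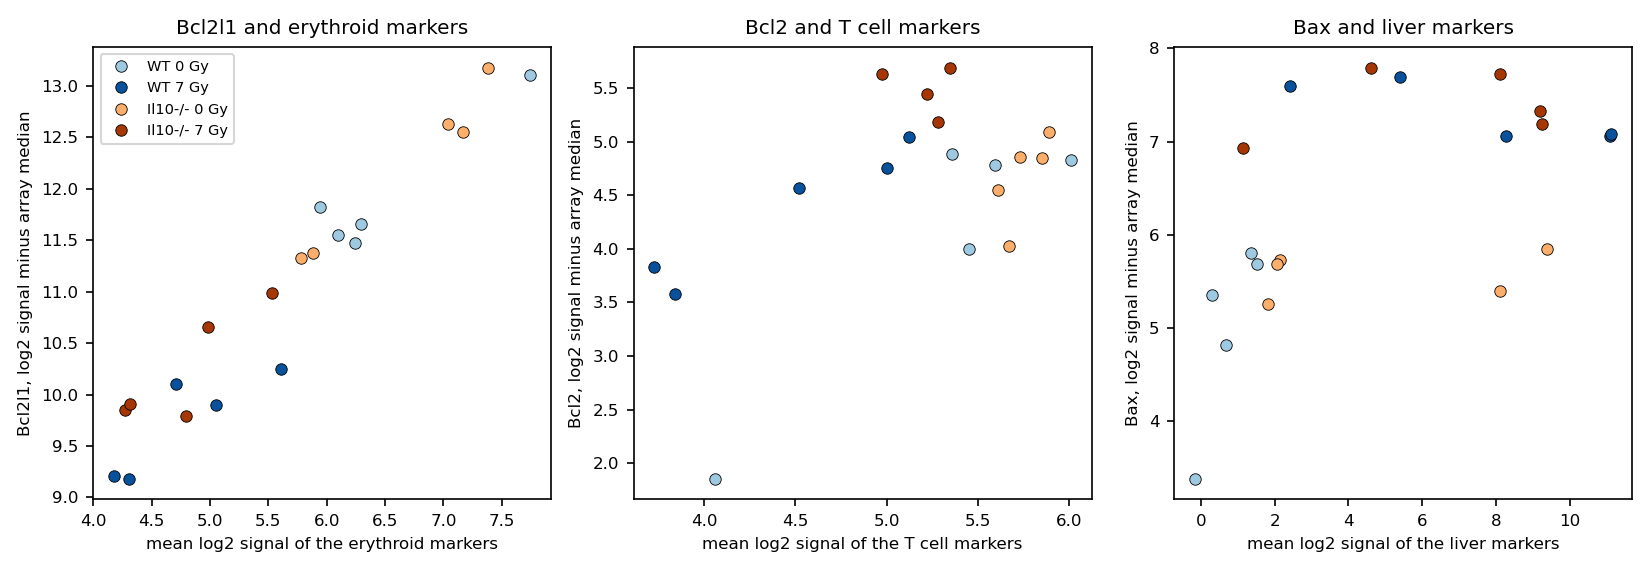
Members against marker lists over the 20 arrays: Bcl2l1 and the erythroid mean, Bcl2 and the T cell mean, Bax and the liver mean, each axis a log2 signal minus the array median and each point 1 array, coloured by group. Bcl2l1 is high where the erythroid mean is high, and Bax is higher in the irradiated arrays of each genotype. In mice labelled WT every irradiated array also has a higher liver mean than every unirradiated one.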

How the data were processed

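Agilent mouse arrays of 1 colour were hybridised with blood RNA, 20 in all. The authors deposited the scanner output of each array, in which every spot has a background-subtracted intensity (an arbitrary linear unit, not normalized between arrays) and marks for uneven spots and spots near background. The submitters' processing notes name Agilent Feature Extraction 10.7 and the file headers 12.0.2.2. The methods name BRB-ArrayTools for class comparison. The authors also deposited a table of log2 values, found to equal the log2 of the processed intensity plus a constant for each array, within 0.053 of each array's median distance from 1 reference array. That table served as an alternative only.

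Intensities were converted to log2 and the array median over 39429 non-control probes was subtracted. Uneven spots were left out. Probes marked on at least 25% of the arrays were dropped, as were those with under 20% of the arrays at least 1.5-fold from their median, following the methods. Each comparison was fitted on its 10 arrays with limma 3.58.1 in R 4.3.3, and the interaction on all 20, with Benjamini-Hochberg adjustment over all 18655 probes left. Calls needed p below 0.001 and a false discovery rate under 10%. Sequences were read with Python 3.11.15 and pandas 2.3.3, and figures drawn with matplotlib 3.10.9. The steps were tested on simulated data.

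Every probe whose gene name is 1 of the 10 members is reported. A gene's probe with the highest mean signal among those passing the background filter stands for it. In the other lists the called genes are named, with Mdm2 and Trp53 chosen after their values were seen, except where a result is not reported here, and for each member the genes with the highest Pearson r. Members, lists and markers were chosen with earlier results of these data known. Gene names and mm9 positions are those of the array files. The number of arrays and the signal over background limit the precision. Alternatives were other scalings, normexp background correction, the deposited table, other filters and thresholds, 1 fit of all groups, the slide as a block and leaving out each array. Averaging replicates 1 and 2 and using liver and heart muscle markers as covariates were chosen after seeing the data.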

Additional observations from a re-analysis of the deposited data

Results flagged for a closer look

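Among the 5 arrays of a group, 1 array stood apart from the others in 5 of the 52 sets of a member's probe and a group, by the gap to the nearest array relative to the range of the group (Dixon's criterion). Chance gives about 1 such set in 20.

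Replicate 4 of the unirradiated mice labelled WT had a Bcl2l1 log2 signal of 13.1 on the brighter probe, where the nearest array was at 11.8. Replicate 3 of the unirradiated mice labelled Il10-/- had the lowest Bak1 signal of its group, 5.19, with the nearest at 5.75. Replicate 4 of that group had the highest Bbc3 signal, 4.67, beside 4.52, in a group whose whole spread was small. On the dimmer Mcl1 probe, replicate 4 of the irradiated mice labelled Il10-/- was at 5.72 and the next array at 4.81. On the tested Bcl2l11 probe, replicate 3 of the same group was at −0.458 and the next at 0.115, both near background.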

How the results depend on the processing

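Over 1284 values of members under the alternatives, 1192 kept their direction and side of the threshold, 25 were no longer called, 5 were newly called, and 62 changed sign, all 62 called in neither setting. With the replicate block (the slide as a term) 2 members were called in mice labelled WT, Bcl2l1 and Bax. In mice labelled Il10-/- 3 were called, and 0 in the other comparisons. Of all 18655 probes, that fit called 1606 in mice labelled WT and 1278 in mice labelled Il10-/-. It called 376 between unirradiated groups, 1 between irradiated groups and 0 in the interaction. Bbc3 in mice labelled WT was the call lost. The replicate numbers mark shared slides, but the correlation of same-slide arrays, after taking off group means, ran from −0.661 to 0.684 on single slides with means of −0.13 to 0.414, so they were not taken as pairs.

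With normexp 0 members, and 0 of all probes, were called in mice labelled Il10-/- (Bax 1.25, Bbc3 1.18, Bcl2l1 −2.28), and Bcl2l1 lost its call in mice labelled WT (−1.16). With the liver and heart muscle covariates 0 members were called in mice labelled WT, as were 6 of all 18655 probes, against 1265 without them. Between irradiated groups 1 member, Pmaip1 (1.21), was called with them. There the called probes went from 2 to 210. The changes of Bax over Mcl1 in mice labelled WT and of Bbc3 over Mcl1 in mice labelled Il10-/- were both 1.82 with normexp. Leaving out single arrays left 2 to 3 members called in each genotype. Bcl2l1 lost its call in mice labelled Il10-/- without replicate 1 or 2 of either dose (−1.87 to −1.89), and its dimmer probe was newly called without replicate 4 of the unirradiated group (−2.46). The causes were not tested. In mice labelled WT the split of all probes into higher and lower calls was 834 and 431, but 794 and 759 with the 75th percentile and 706 and 694 with quantile normalization.

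Uncalled differences that changed sign were, in mice labelled WT, Mcl1 at −0.19 (75th percentile), −0.30 (quantile), −0.074 (reference array), −0.051 (deposited table) and −0.73 (covariates), its dimmer probe at 0.29 (normexp) and 0.088 (replicates 1 and 2 averaged), Bcl2l11 at 0.28 (deposited table) and 1.36 (covariates), and Pmaip1 at −0.58 (covariates). In mice labelled Il10-/- they were Pmaip1 at −0.044 and Bak1 at −0.11 (normexp). Between unirradiated groups they were Bbc3 at −0.067, −0.18 and −0.025 (75th percentile, quantile, reference array), Bcl2l1 at −0.058 and −0.016 (75th percentile, reference array), and Bcl2l11 at 0.16 (deposited table) and 0.40 (covariates). Between irradiated groups, all with normexp, they were Mcl1 at −0.38 and −0.30, Bbc3 at −0.40, Pmaip1 at −0.042, Bcl2l1 at −0.37 and −0.046, Bid at −0.26, Bak1 at −0.61 and Bax at −0.75. In the interaction they were Mcl1 at 0.10 and 0.011 (quantile), Bbc3 at −1.07, Bcl2 at −0.44, Pmaip1 at −0.45 and Bcl2l1 at −0.68 and −1.12 (normexp), Bbc3 at −0.037 and Pmaip1 at −0.19 (replicates averaged), and Bcl2l1 at −0.96 and −0.50 (covariates).

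Leaving out single arrays gave, in mice labelled WT, Mcl1 from −0.38 to 0.26 and −0.42 to 0.038, Bcl2 from −0.27 to 0.49 and Bcl2l11 from −0.56 to 0.14. It gave Bcl2l11 from −0.49 to 0.21 between unirradiated groups and Bax from −0.0027 to 0.21 between irradiated groups. In the interaction it gave Mcl1 from −0.60 to 0.039, Bid from −0.24 to 0.12, Pmaip1 from −0.14 to 0.43 and Bcl2l1 from −0.37 to 0.32 and −0.074 to 0.46. The 5 arrays per group, and probes near background such as those of Bcl2l11 and Bik, limit what could be called.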
